A study of Drosophila melanogaster with 3 samples.

Results

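The genes described here encode proteins of the spliceosome core, and the data are peak lists from chromatin immunoprecipitation followed by sequencing (ChIP-seq) of a tagged zinc finger protein, Grauzone, in fly embryos. Members were all protein-coding genes on the chromosomes 2L, 2R, 3L, 3R, 4 and X whose symbol belongs to the Prp, Sm, LSm, snRNP, Sf3a, Sf3b or U2af series or is snf, with letter case ignored. The choice used symbols only and no measured value. It gave 39 genes of 13945. Of these 39, 6 matched only because case was ignored: smg, Smg5, Smg6, Lsm10, Lsm11 and Lsm12a. The first 3 of them encode no splicing factor: smg is a translational repressor of maternal mRNA, and Smg5 and Smg6 act in nonsense-mediated mRNA decay. They were kept because the rule takes them, and counts without them are given. Another 4 of the 39, LSm1, Lsm10, Lsm11 and Lsm12a, belong to the LSm protein family but not to the core machinery: LSm1 is part of a cytoplasmic mRNA decay ring, and Lsm10 and Lsm11 belong to the U7 particle that processes histone mRNA.

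All samples came from whole Drosophila melanogaster embryos of 0 to 24 hours, males and females pooled, from a stable transgenic line that makes Grauzone (gene grau) with green fluorescent protein fused to its C-terminal end. Chromatin was pulled down with an antibody against green fluorescent protein, and the selected DNA measured 200 to 800 bp. The labels give 1 group of 3 biological replicates, and the line is the only one in the series. Neither a separate cell type nor a narrower stage can be read from these samples, and no control list was analysed here, so no background measured in the same way stands beside the values. Each replicate list held 30000 peaks. The authors' reproducible list held 9624 peaks, all taken from the pooled data, and read depth is unknown here. The signal of a peak is the authors' own value on a scale that was not stated. It is given as deposited for the reproducible list, and for replicates after division by the median signal of the replicate's list, called scaled signal below. A promoter peak of a gene has its point source, the most enriched base, within 500 bp of any annotated start of that gene.

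The spliceosome removes introns from pre-mRNA. It is built from small nuclear ribonucleoproteins (snRNPs) called U1, U2, U4, U5 and U6, each a small RNA with a ring of Sm or LSm proteins and its own proteins. U1 marks the upstream splice site, U2 with its Sf3a and Sf3b proteins and the U2af heterodimer marks the branch point and the downstream splice site, the U4/U6.U5 tri-snRNP then joins, and a set of helicases and second-step factors drives catalysis. Most of these genes are active in nearly all cells. Grauzone is a DNA-binding protein of the ZAD zinc finger family, known in the fly for activating cortex during female meiosis.

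Sequences around the point source are shown for 6 splicing genes among the 12 members of highest rank, with the point source outside annotated exons, since they show the base composition described further on. Each sequence is written 5′ to 3′ on the member's own strand, in the dm6 build, with bases of annotated exons left out. Capitals mark the longest unbroken run of A and T within 50 bp of the point source. The windows are chr3L:6193258-6193408 (minus strand) for Sf3b6, chr3R:18983729-18983879 (minus) for snRNP-U1-C, chr3L:15158821-15158971 (plus) for Prp31, chr3R:19031289-19031439 (minus) for Prp18, chr3L:12814020-12814149 (minus) for Sf3a2 and chr2L:568154-568304 (plus) for Sf3b1.
Sf3b6: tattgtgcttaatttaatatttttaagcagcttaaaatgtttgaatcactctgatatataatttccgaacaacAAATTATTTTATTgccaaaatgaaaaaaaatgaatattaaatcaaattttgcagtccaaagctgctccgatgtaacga
snRNP-U1-C: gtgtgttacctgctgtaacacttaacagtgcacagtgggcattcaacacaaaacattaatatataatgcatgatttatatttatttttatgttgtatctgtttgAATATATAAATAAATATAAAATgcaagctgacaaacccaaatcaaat
Prp31: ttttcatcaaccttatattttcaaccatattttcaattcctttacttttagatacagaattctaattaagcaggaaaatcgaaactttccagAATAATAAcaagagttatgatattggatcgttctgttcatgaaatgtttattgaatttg
Prp18: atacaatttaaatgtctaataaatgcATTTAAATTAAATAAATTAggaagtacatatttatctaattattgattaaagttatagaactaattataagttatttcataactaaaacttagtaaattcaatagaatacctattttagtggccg
Sf3a2: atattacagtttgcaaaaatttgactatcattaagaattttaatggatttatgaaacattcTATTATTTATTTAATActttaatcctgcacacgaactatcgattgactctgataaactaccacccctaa
Sf3b1: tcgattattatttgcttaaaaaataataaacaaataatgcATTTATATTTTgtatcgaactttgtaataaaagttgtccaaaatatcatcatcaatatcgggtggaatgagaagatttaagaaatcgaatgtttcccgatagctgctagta
The GC content of these windows was 25.8% for Sf3b6, 27.8% for snRNP-U1-C, 26.5% for Prp31, 19.2% for Prp18, 26.9% for Sf3a2 and 27.2% for Sf3b1. The marked run was 22 bp long in snRNP-U1-C, 19 bp in Prp18, 16 bp in Sf3a2, 13 bp in Sf3b6, 11 bp in Sf3b1 and 8 bp in Prp31. The run covered the point source in Sf3b6 and Sf3a2 and lay 17 to 31 bp from it in the other 4.

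More members than not had a reproducible promoter peak, and they came from the Sm, U1, U2, tri-snRNP and catalysis groups as well as from genes outside the core. A reproducible promoter peak was found for 21 of 39 members, or 53.8% (95% Clopper-Pearson interval 37.2% to 69.9%). The share was 32.1% (4476 genes) among all 13945. Without smg, Smg5 and Smg6 the count was 19 of 36, or 52.8%, and without the 4 other LSm genes as well it was 17 of 32, or 53.1%. The intervals cover counting error only, since genes are not independent replicates. In the whole replicate lists, a promoter peak was present for 32 (82.1%), 29 (74.4%) and 26 (66.7%) members in replicates 1, 2 and 3, averaging 74.4% ± 7.69 (SD, n = 3). All protein-coding genes had one in 50.8%, 51.6% and 47.5%, so in each of the 3 replicates the members' share was the higher. In the 9624 strongest peaks of each replicate the counts were 23, 22 and 20 members, or 55.6% ± 3.92 (SD, n = 3), against 34.2%, 33.3% and 30.7% of all genes.

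**Figure D1:**
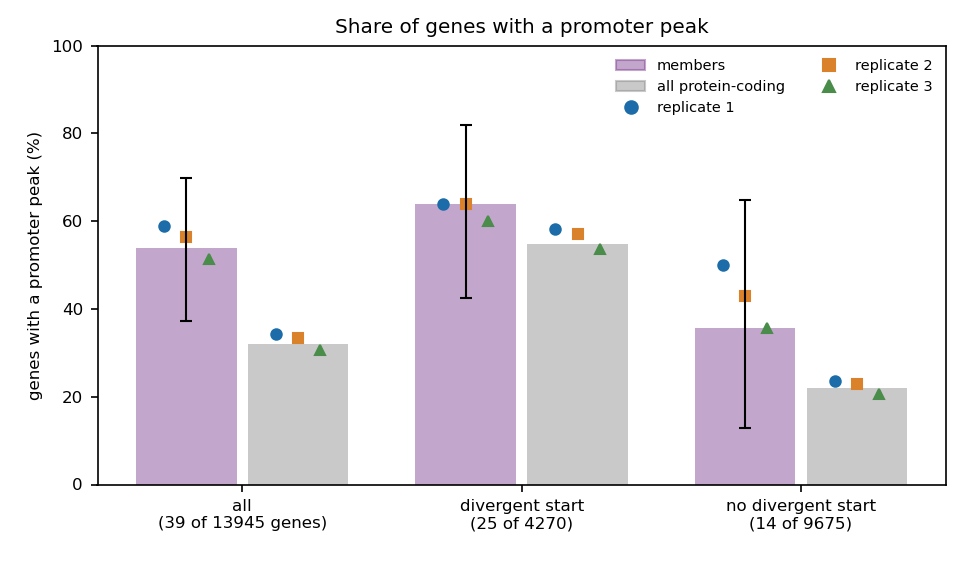
Share of genes with a promoter peak (%, vertical axis) for the members and for all protein-coding genes, over all genes and split by whether the gene has a divergent start. Bars show the reproducible list, error bars its 95% Clopper-Pearson interval for members, and points the 9624 strongest peaks of each replicate; the members' points lie above those of all genes in each of the 3 classes, and the members' intervals include the share of all genes in both split classes.

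Members had close neighbours on the other strand far more often than most genes, and this bears on the count. Genes are called divergent when one of their starts lies at most 500 bp from a start on the opposite strand. Of the members 25 of 39, or 64.1%, were divergent, against 30.6% of all protein-coding genes. Among divergent members 16 of 25 had a reproducible promoter peak, or 64.0% (95% Clopper-Pearson interval 42.5% to 82.0%), beside 54.8% of all divergent genes. Among the other members 5 of 14 had one, or 35.7% (interval 12.8% to 64.9%), beside 22.1%. Within each class the share of all genes lies inside the members' interval, so for the reproducible list no difference within a class was detectable at this number of genes. In the strongest peaks of the replicates the divergent members had 62.7% ± 2.31 beside 56.2% ± 2.34 of divergent genes, and the other members 42.9% ± 7.14 beside 22.4% ± 1.57 (SD, n = 3). In the whole replicate lists the divergent members had 84%, 80% and 72% beside 73%, 74.1% and 67.6% of divergent genes, inside the members' interval each time. The other members had 78.6%, 64.3% and 57.1% beside 41%, 41.7% and 38.7%. In replicate 1 that share of 41% fell below the members' interval (11 of 14, 49.2% to 95.3%), and in replicates 2 and 3 it lay inside. At a q-value of 0.01 or less the other genes' share was below the interval in replicates 1 (35.2%) and 3 (28.8%, interval 28.9% to 82.3%) and inside it in replicate 2. Most members, 32 of 39 (82.1%), had 1 annotated start, against 73.5% of all genes. Of these 32, 16 (50%) had a reproducible promoter peak, against 25.4% of all genes with 1 start, a comparison that was not split by divergence.

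Among the genes of the Sm ring, which is loaded onto every spliceosomal snRNA except U6, SmD3, SmD2 and SmB had a reproducible promoter peak and SmD1, SmE and SmF did not. The highest of them was SmD3, on 2R from 12168527 to 12168773, at rank 4904 (signal 431.5) with scaled signals of 3.73, 3.66 and 2.66 in replicates 1, 2 and 3 (mean 3.35 ± 0.598, SD, n = 3). SmD2 ranked 6410 (signal 326.2) with scaled signals of 2.19, 2.11 and 3.20, and SmB ranked 6547 (318.6) with 2.85, 2.23 and 1.85. These 3 peaks were thus of similar size, and all stood above the median peak of each replicate list. SmE had a promoter peak in all 3 replicate lists, with scaled signals of 0.696, 1.13 and 1.44, but none in the pooled list. SmD1 (1.86) and SmF (0.471) had one in replicate 2 only. The weak SmF peak, with a q-value of 0.197, is near the bottom of its list.

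Of the 6 LSm genes, LSm1 and Lsm10 had a reproducible promoter peak, and neither acts in the spliceosome core. LSm1 ranked 1670 on 2R from 21170658 to 21171048 (signal 1136.3), with scaled signals of 7.08, 8.27 and 11.8 (9.03 ± 2.43, SD, n = 3). Lsm10 ranked 6777 (306.7), with 2.76, 2.36 and 2.24. LSm3 and LSm7, the only genes of the U6 ring among the members, had no reproducible peak. Each had a promoter peak in replicate 1 only. The other genes of that ring were not taken by the symbol rule and were not examined. The LSm7 peak there had a scaled signal of 3.83 at rank 4090, while the nearest peaks of replicates 2 and 3 were 13413 bp and 15201 bp away. LSm3 had a scaled signal of 1.08. Lsm11 (1.04 and 0.933) and Lsm12a (1.79 and 1.51) had peaks in replicates 1 and 2 and none in replicate 3.

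The U1 genes with a reproducible promoter peak were snRNP-U1-C, which helps U1 hold the upstream splice site, snf, an RNA-binding protein of both U1 and U2, and Prp39, a U1 factor. The snRNP-U1-C peak ranked 1455 on 3R from 18983563 to 18984018 (signal 1268.0), with scaled signals of 8.77, 8.54 and 12.9 (10.1 ± 2.46, SD, n = 3). It stood well above the other U1 genes in every replicate. The snf peak ranked 6398 on X from 5309092 to 5309266 (signal 327.2). Its scaled signals were 2.79 and 2.40 in replicates 1 and 3, while the closest peak of replicate 2 lay 2948 bp away. The Prp39 peak, at rank 9612, is one of the last in the list (201.7), with scaled signals of 1.85, 2.22 and 1.72. The replicate 3 value belongs to a point source 257 bp from the reproducible one. The snRNP-U1-70K gene, which encodes the main U1 protein that contacts other splicing factors, had promoter peaks in all 3 replicate lists (1.14, 1.09 and 1.80) and none in the pooled list. Prp40, a U1 protein, had none in any list, the nearest reproducible peak being 14140 bp away.

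The U2 genes formed the largest group, and 6 of 10 had a reproducible promoter peak, including the highest peak of any member. U2af50 encodes the large U2af subunit, which binds the polypyrimidine tract. Its peak ranked 513 on X from 16358892 to 16359389 (signal 2627.7), with scaled signals of 15.8, 17.8 and 29.7 (21.1 ± 7.49, SD, n = 3). The point source lay 130 bp upstream of U2af50 in the 5′ UTR of its divergent neighbour PIG-Q. Sf3b6 encodes the small Sf3b protein at the branch point adenosine. Its peak ranked 1227 on 3L from 6193123 to 6193566 (signal 1448.3), with scaled signals of 8.46, 7.78 and 18.4 (11.5 ± 5.93). Replicate 3 was the highest for both genes.

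Sf3a2, a subunit of the Sf3a complex, ranked 2337 on 3L from 12813923 to 12814293 (signal 870.3). Its scaled signals of 6.45, 6.48 and 7.81 (6.92 ± 0.777, SD, n = 3) were among the steadiest of the strong peaks. Sf3b1, which encodes the large scaffold of Sf3b, ranked 5330 on 2L from 568107 to 568328 (395.5), with 2.35, 3.48 and 3.46. Sf3a1 ranked 6738 (308.6), with 2.96, 1.97 and 2.12. U2af38, the small U2af subunit that recognises the AG at the intron end, ranked 8261 on 2L from 294994 to 295125 (243.9), with 1.22, 2.28 and 2.45. The replicate 1 value belongs to a point source 136 bp from the reproducible one. Both subunits of the U2af heterodimer had a peak, but they were near opposite ends of the members' ranking.

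The other 4 U2 genes had no reproducible promoter peak. The Prp5 gene, for a helicase that remodels U2, missed the list narrowly: its peak stood at rank 9708 in the pooled list, of which the reproducible list holds the first 9624. Prp5 had scaled signals of 1.26 in replicate 1 and 2.63 in replicate 3. Their point sources lay at -343 bp and -182 bp, and that of the pooled list at -353 bp. Only the replicate 1 value thus belongs to a point source within 100 bp of the pooled one. Sf3b3 stood at pooled rank 10983 and had peaks in all 3 replicate lists, with scaled signals of 1.91, 1.98 and 1.56. Sf3b5 stood at pooled rank 17400, with 0.686 and 1.08 in replicates 1 and 2. For Sf3b2 no list held a promoter peak, and the nearest reproducible peak was 8198 bp away.

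Of the 6 tri-snRNP genes, Prp31 and Prp38 had a reproducible promoter peak. Prp31, a U4/U6 protein, ranked 1716 on 3L from 15158590 to 15159118 (signal 1108.8), with scaled signals of 4.51, 5.67 and 17.1 (9.11 ± 6.98, SD, n = 3). Its highest replicate was 3.8 times its lowest, the widest spread of any member with a reproducible peak in all 3 lists. Prp38, which is needed to activate the assembled spliceosome, ranked 9214 (212.9) on 2R from 9143759 to 9144178. It had 2.75, 1.06 and 0.848, so in replicate 3 it was weaker than the median peak. Prp3, another U4/U6 protein, stood at pooled rank 9706, just outside the list, with 1.27 and 2.33 in replicates 1 and 2. Prp4k (replicate 1, scaled signal 1.30) and Prp6 (replicate 3, 3.37) had a peak in 1 list each. Prp8, the largest and most conserved spliceosomal protein, which holds the catalytic centre, had none in any list, and the nearest reproducible peak was 5617 bp away.

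Each of the 3 catalysis genes had a reproducible promoter peak. Prp18, a second-step factor, ranked 1923 on 3R from 19031201 to 19031562 (signal 1022.1), with scaled signals of 7.99, 6.45 and 9.19 (7.88 ± 1.37, SD, n = 3). Prp19, the ubiquitin ligase that names the Prp19 complex, ranked 5157 on 2R from 18451101 to 18451309 (409.9), with 3.22, 2.06 and 4.50. Prp16, a helicase that acts between both catalytic steps, ranked 6425 on X from 14212584 to 14212782 (325.5), with 3.01, 2.54 and 2.16. Its point source lay in an intron, 273 bp downstream of the nearest Prp16 start.

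Of the 3 members that encode no splicing factor, smg ranked 739 on 3L from 8996123 to 8996605 (signal 2057.8), with scaled signals of 16.8, 15.4 and 16. Smg5 ranked 1594 on 2L from 13904323 to 13904851 (1182.3), and its strongest promoter peaks in the replicates had 10.7, 9.87 and 16.6. In replicates 1 and 2 that was another peak, 623 bp and 635 bp from the reproducible point source. Both smg and Smg5 had a second reproducible promoter peak, and no other member did. Smg6 had no promoter peak in any list. So 2 of the 5 highest peaks among the 39 genes belong to genes outside splicing.

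**Figure D2:**
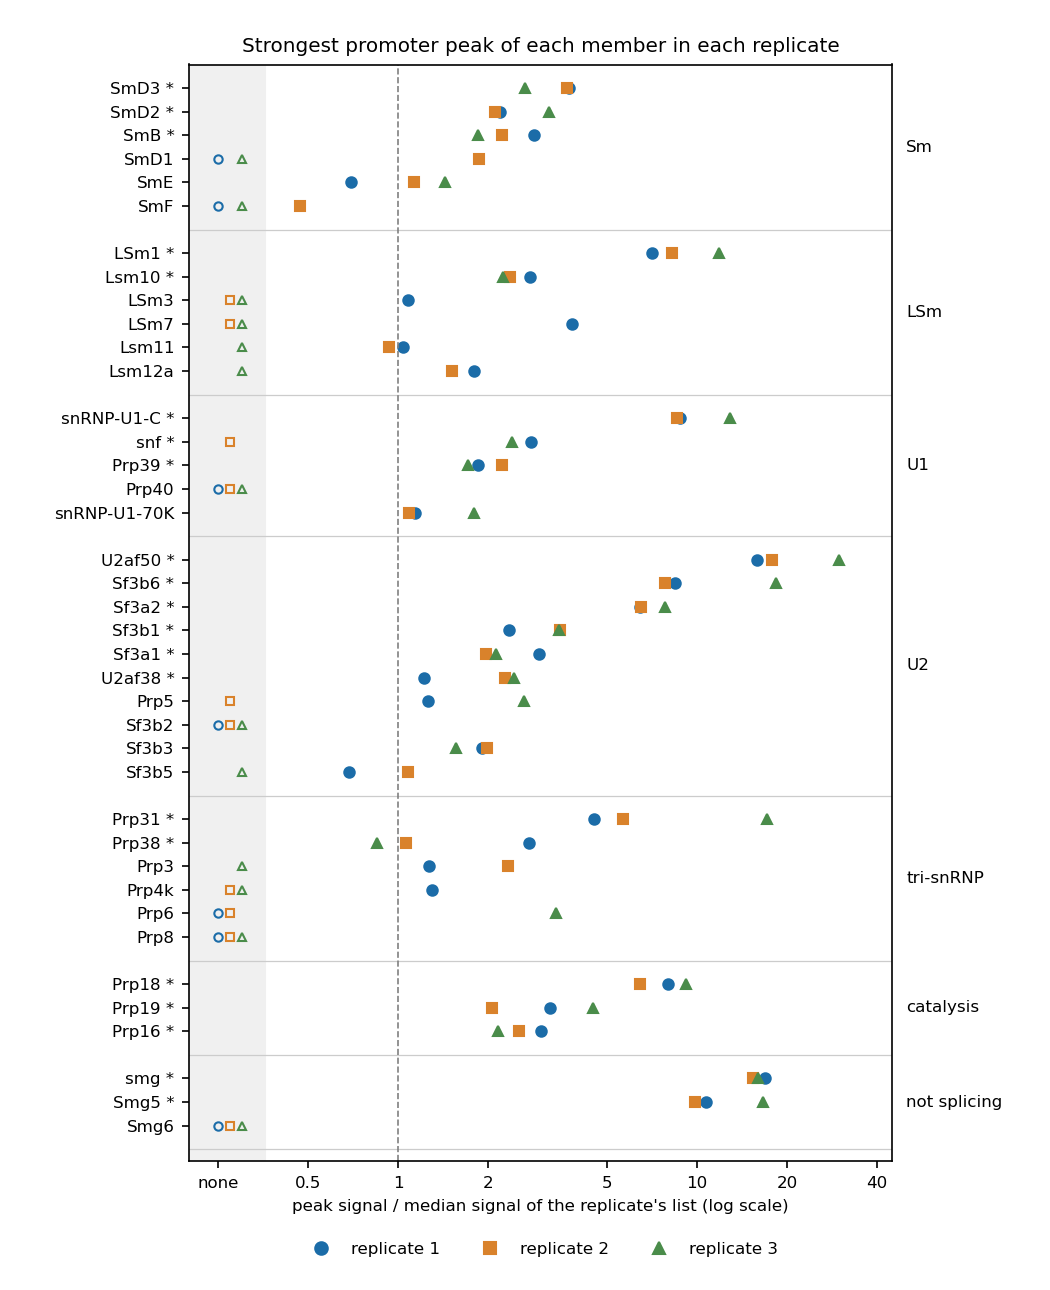
Scaled signal (peak signal divided by the median of its replicate list, log scale, horizontal axis) of the strongest promoter peak of each of the 39 members in each replicate, grouped by role. Symbols mark replicates, open symbols in the grey band no promoter peak, an asterisk a reproducible promoter peak, and the dashed line the list median; U2af50 reaches 15.8 to 29.7, while Prp40, Prp8, Sf3b2 and Smg6 have no peak in any replicate.

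Peaks that entered the reproducible list were nearly all seen in every replicate, and those that did not were often seen in some. Of the 21 members with a reproducible promoter peak, 20 had one in all 3 replicate lists and snf in 2. Of the 18 without, 3 (Sf3b3, SmE and snRNP-U1-70K) had one in all 3 lists, 5 in 2 lists, 6 in 1 list and 4 in none. In those 3 genes the replicates did not share one place within 100 bp: relative to the nearest start the point sources of replicates 1, 2 and 3 lay at 21, -69 and -405 bp for Sf3b3, at -474, -50 and -41 bp for SmE and at -39, -180 and -111 bp for snRNP-U1-70K. The reproducible list holds the first 9624 peaks of the list pooled from these same replicates, so the first count was partly built in. The members nearest its end were Prp39 at rank 9612 inside it, and Prp3 and Prp5 at pooled ranks 9706 and 9708 outside it. Altogether the pooled list of 30000 peaks held a promoter peak for 28 members, or 71.8%, against 47.9% of all protein-coding genes.

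In the replicate lists the median signal of the members' peaks differed from that of all genes by less than the spread between replicates. In the reproducible list the members' peaks had a median rank of 5157. That was lower in the list than the 3916.5 for the strongest promoter peak of each protein-coding gene that had one. The median scaled signal of the members with a promoter peak was 1.11 times that of all genes with one in replicate 1, 0.973 times in replicate 2 and 0.93 times in replicate 3 (mean 1.01 ± 0.0966, SD, n = 3). The ranks in the reproducible list were uneven. In the first 2406 ranks were 9 members (42.9%, against 33.4% of all genes with a peak), from U2af50 at 513 to Sf3a2 at 2337. These 9 include smg (739), Smg5 (1594) and LSm1 (1670), which are outside the spliceosome core, so 42.9% is not a share of core genes alone. The other 12 members with a peak ranked lower, from SmD3 at 4904 to Prp39 at 9612, and no member lay between.

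Most of these peaks were shared with a neighbouring gene. For 17 of 21 members the same point source was also within 500 bp of a start of another gene, against 55.5% of all protein-coding genes with a promoter peak. The exceptions were smg, Smg5, Prp16 and Prp39, so only 2 of the splicing genes had a peak to themselves. For 6 members the neighbour's start was the nearer: Tnpo for Sf3b6, Xpd for LSm1, rswl for Prp19, PIG-Q for U2af50, Nle for Sf3b1 and Stip1 for U2af38. When each peak was given only to the nearest start, 15 of 39 members had one, or 38.5% (95% Clopper-Pearson interval 23.4% to 55.4%). The share of all genes was 24.4%, inside that interval. From these data, binding that concerns the member and binding that concerns its neighbour cannot be told apart.

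The neighbours belong to many processes. Xpd, beside LSm1, and Cdk7, beside snf, both encode subunits of the general transcription factor TFIIH. Tnpo, beside Sf3b6, encodes a nuclear import receptor. RpS15Ab, beside Lsm10, encodes a ribosomal protein, KdelR, beside SmB, a receptor that returns proteins to the endoplasmic reticulum, Oda, beside SmD3, an antizyme, shrb, beside Prp38, an ESCRT-III subunit, and Stip1, beside U2af38, a chaperone cofactor. The remaining neighbours of divergent members were gukh for snRNP-U1-C, CG6013 for Prp18, CG42588 for Sf3a2, CG18048 for SmD2, rswl for Prp19, Nle for Sf3b1 and PIG-Q for U2af50. Prp31 and Sf3a1 shared their peaks with Msh6, a mismatch repair gene, and Irc, on the opposite strand. The closest starts are 538 bp and 520 bp apart, beyond the 500 bp that define a divergent gene here. The divergent member smg was counted through another of its starts, since its highest peak lay 1788 bp from the start of CG5087.

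Many point sources lay between both starts of a pair, some near the middle and some to one side. For 15 divergent members the point source was within 500 bp of a start of each gene of the pair, and in 13 of these it lay between both starts. For Sf3b6 and Tnpo the distances to the starts were 154 bp and 147 bp, for Sf3b1 and Nle 111 bp and 108 bp, for SmD3 and Oda 116 bp and 127 bp, for LSm1 and Xpd 171 bp and 158 bp, and for SmD2 and CG18048 92 bp and 108 bp. Others were lopsided: U2af38 was 348 bp from its own start and 93 bp from that of Stip1, Sf3a2 55 bp and 180 bp from its own and that of CG42588, snf 59 bp and 200 bp from its own and that of Cdk7, and Lsm10 10 bp and 26 bp from its own and that of RpS15Ab. The exceptions outside the gap were U2af50, where the point source lay 26 bp inside PIG-Q, and Prp38, where it lay 13 bp inside Prp38. Taking any reproducible peak flanked by starts that read apart and lie at most 500 bp from each other, 11 of 15 with a member (73.3%, 95% Clopper-Pearson interval 44.9% to 92.2%) had the point source in the middle part of the gap, when the gap is cut into 3 equal parts, against 581 of 1038 (56.0%) of all such peaks, a share inside that interval. That count includes the second peak of smg and, for U2af50, a farther start of PIG-Q.

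**Figure D3:**
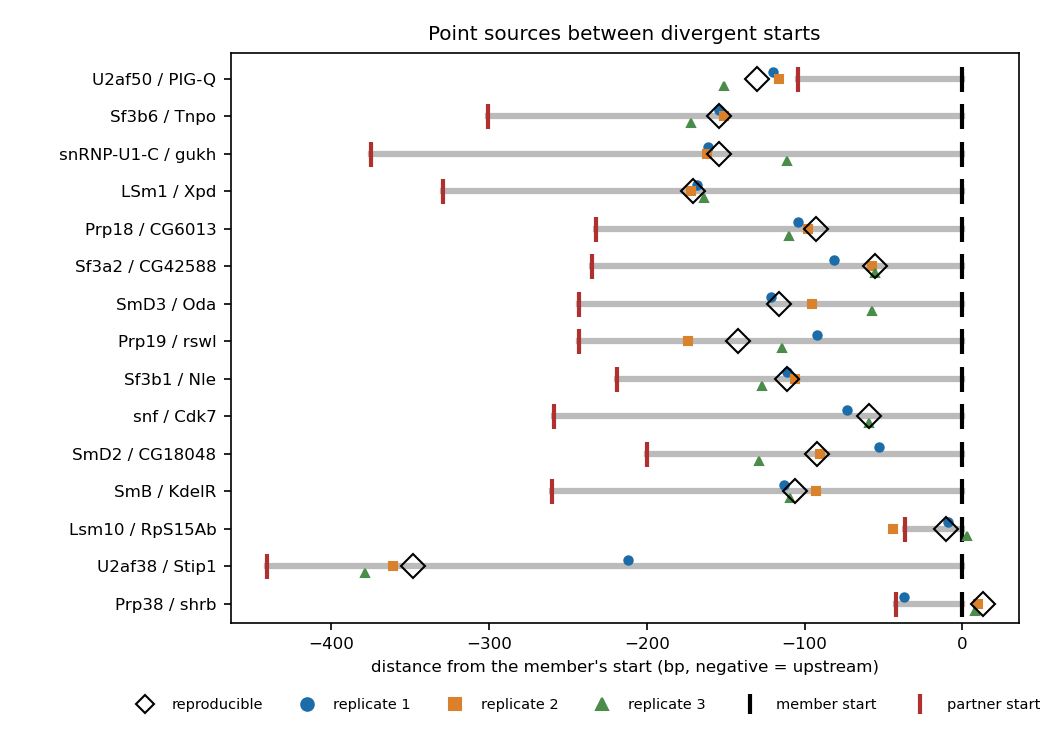
Point sources between divergent starts, for the 15 pairs of a member and its partner whose starts both lie within 500 bp of the point source, ordered by rank. The horizontal axis gives the distance from the member's start in bp (negative is upstream), black and red ticks the member's and the partner's start, diamonds the reproducible point source and small symbols those of the replicates; in 13 pairs the diamond lies between the ticks.

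Members whose divergent neighbour was at a middle distance had a peak most often. Distances are those between the closest starts that read apart. With 151 to 300 bp between them, 9 of 10 members had a reproducible promoter peak, or 90.0% (95% Clopper-Pearson interval 55.5% to 99.7%), against 56.7% of all such genes, the exception being Lsm11. With 1 to 150 bp it was 3 of 8, or 37.5% (interval 8.52% to 75.5%), against 48.1%. The 3 were U2af50, Lsm10 and Prp38, and the 5 without were Prp3, Sf3b5, SmE, Prp40 and Sf3b2. With 301 to 500 bp it was 4 of 7, or 57.1% (interval 18.4% to 90.1%), against 59.9%. Each interval is wide, and those of the narrow and wide gaps include the share of all such genes, while the share of 56.7% for middle gaps lies just inside the interval of the members. These distance classes were chosen after the values had been seen. The neighbours of the 9 divergent members without a reproducible peak were BuGZ (LSm7), Marc (Lsm11), Mi-2 (Prp3), alpha4GT1 (Prp40), CSN1b (Prp6), CG17219 (Sf3b2), CG11986 (Sf3b5), Ptp69D (SmD1) and CG34132 (SmE).

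The point source was upstream of the nearest start of the member in 18 of 21 cases, or 85.7%, against 85.8% of all protein-coding genes with a promoter peak. The median position was -106 bp for members and -128 bp for all genes, and the members ranged from -348 bp at U2af38 to 273 bp at Prp16. In the replicate lists 71.9%, 79.3% and 84.6% of the members' strongest peaks were upstream, a mean of 78.6% ± 6.40 (SD, n = 3). The share of all genes in these lists is not given, and the 85.8% is for the reproducible list only. The point sources of 15 members were intergenic, 3 lay in a 5′ UTR (U2af50, in that of PIG-Q, Smg5 and Prp38) and 3 in an intron (smg, SmD3, in that of Oda, and Prp16). The replicates placed them closely: the median distance between a replicate's strongest promoter peak and the reproducible point source was 15 bp, 9.50 bp and 18 bp in replicates 1, 2 and 3. It was at most 100 bp for 19 of 21, 19 of 20 and 20 of 21 members. The reproducible point sources come from data pooled from these same replicates, so this closeness was partly built in. Larger shifts were those of Smg5, where another promoter peak was the stronger in replicates 1 and 2 (623 bp and 635 bp), of U2af38 in replicate 1 (136 bp) and of Prp39 in replicate 3 (257 bp).

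The point sources of members lay in DNA poor in G and C. From 50 bp before to 50 bp after the point source the GC content was 30.1% ± 9.39 (SD over 21 peaks, range 15.8% to 51.5%), against 34.8% ± 10.8 over the 4130 reproducible promoter peaks. The difference is smaller than the spread over peaks. Windows 500 bp away had 48.7% beside the members' peaks and 45.3% beside all promoter peaks. For 19 of 21 members the point source was poorer in GC than its own flanks, against 76.9% of all promoter peaks, and the exceptions were Prp16 and Smg5, both downstream of a start. The longest run of A and T in the window had a median of 13 bp in the members (range 6 to 24 bp) and 10 bp in all promoter peaks. The flanks and the runs were measured after values of the data had been seen.

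**Figure D4:**
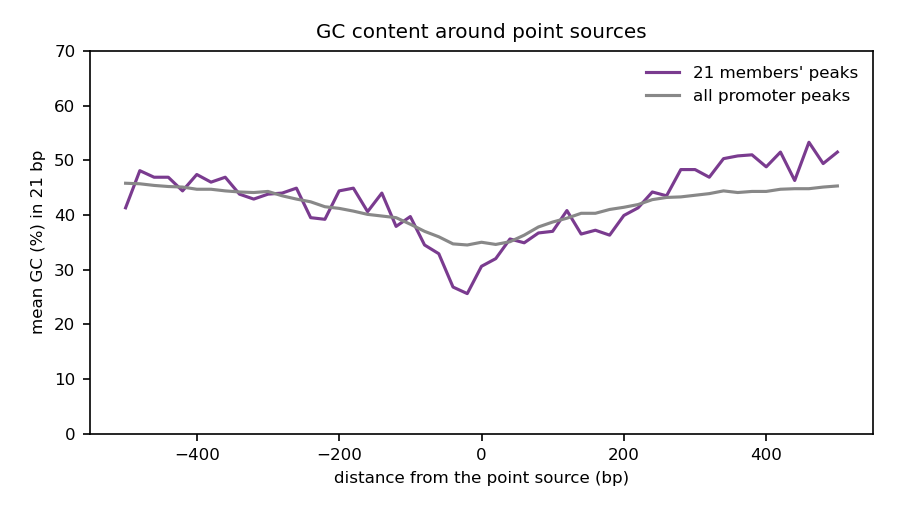
Mean GC content (%, vertical axis) in windows of 21 bp at each distance from the point source (bp, horizontal axis) for the 21 members' peaks and the 4130 reproducible promoter peaks. Distances run along the plus strand for all peaks; the members' curve falls to 25.6% at -20 bp, where that of all promoter peaks is at 34.5%.

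No searched motif was common at the members' point sources. On either strand of the same windows, TATCGATA, the DNA replication-related element of housekeeping promoters, was found at 2 members, Lsm10 and Prp39, or 9.52%, against 3.58% of all promoter peaks. The TATA box sequence TATAAA was found at 4 members (Prp19, Sf3b1, U2af38 and snRNP-U1-C), or 19.0%, against 22.5%. CAGCTG, an E-box, was found at Prp38 only, or 4.76%, against 4.48%. GGTCACAC, the core of a promoter element bound by M1BP, GAGAG, bound by GAGA factor, CAGGTAG, bound by Zelda, and CACGTG, another E-box, were found at 0 of 21 members, against 2.28%, 9.18%, 0.436% and 0.92% of all promoter peaks. With 21 windows the counts are too small to set a member's share apart from that of all promoter peaks. A match says only that these letters are in the window.

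Splicing genes beyond the symbol rule were described from a separate list of 49 symbols, of which 41 were found in the annotation. The list covers further snRNP proteins, SR proteins, exon junction proteins and splicing regulators. Of these 19 of 41 had a reproducible promoter peak, or 46.3% (95% Clopper-Pearson interval 30.7% to 62.6%), and the 32.1% of all genes lies inside that interval. The divergent ones had it in 14 of 27 cases (51.9%, below the 54.8% of all divergent genes) and the others in 5 of 14 (35.7%, beside 22.1%). In the strongest peaks of the replicates the share was 55.3% ± 2.82 (SD, n = 3), close to the 55.6% ± 3.92 of the members. High peaks were found at Sxl, the master switch of sex determination, at rank 1062 (signal 1610.5), and the SR protein gene SC35 at rank 1249 (1420.5). Others were at SF2 at rank 1581, Phf5a, an Sf3b subunit, at 1695 and Acn, which associates with the exon junction complex, at 2082. Of these 5 genes, only Sxl was not divergent. All 5 fall within the range of ranks of the stronger members, from 513 to 2337.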

How the data were processed

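The series holds ChIP-seq peak lists in 1 group of 3 biological replicates. The authors deposited, per the file headers and accompanying descriptions, a list per replicate, a pooled list and a reproducible list, the optimal set by irreproducible discovery rate. The sources used here give no aligner, caller or threshold. Each peak has a signal on an unstated scale, a −log10 q-value and a point source, all as deposited by the authors. Coordinates are on dm6, as in the labels. All 9624 reproducible peaks were also the first 9624 of the pooled list, at identical point sources. No rows of the replicate lists were identical.

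Transcription starts came from Ensembl release 115 for protein-coding and noncoding genes, without transposable elements and pseudogenes, and gave 23307 start positions. Bases came from the RefSeq genome of the same build. A gene's peak is the one with the highest signal whose point source lies within 500 bp of any of its starts. Replicate peaks matched within 100 bp. No test was run: members are given as counts beside those of all protein-coding genes, with mean ± SD over 3 replicates and 95% Clopper-Pearson intervals, which cover counting error only. Sequences on 2R are not shown. Members were taken by symbol, and every member is named. Values in each replicate were to be given for the 12 with the highest peaks, the 3 with the lowest and those in at least 2 replicate lists without a reproducible peak, and are given for nearly all. Of the other splicing genes the 6 with the highest peaks were to be named, and 1 of them is not reported here. The members, lists and motifs were chosen with earlier results of these data known. The comparison of distances, promoter starts, position in the gap, intervals per replicate, GC flanks and A/T runs was added after values were seen. Alternatives covered the distance, the list, the replicates, the assignment of shared peaks and the window. Functions were tested on simulated data. Python 3.11.15 with numpy 2.4.6, pandas 2.3.3, scipy 1.17.1 and matplotlib 3.10.9 were used.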

Additional observations from a re-analysis of the deposited data

How the results depend on the processing

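The count of members with a reproducible promoter peak stayed within 1.5 times of 21 under all alternatives run except one. It was 19 at a distance of 250 bp (26.3% of all genes), 23 at 1000 bp (36.5%) and 20 in peaks found in all 3 replicate lists (30.7%). With the nearest start only it was 15 (24.4%, a share inside the members' interval). With genes that share a peak counted once it was 21 (25.9%). No members shared their highest peak with each other, so this last count could not change. Only the share of all genes could fall, so the setting is no check of the members' count. In the stronger of 2 equal parts of the reproducible list it was 9 members (19.1% of all genes), 7 divergent members (36.3% of divergent genes) and 11 other splicing genes; fewer peaks make fewer calls by construction. With each replicate left out in turn, 20 to 21 of 39 members had a peak, against 30.9% to 31.7% of all genes. Divergent members ranged from 15 to 16 of 25, against 52.6% to 53.8% of divergent genes. Other splicing genes ranged from 17 to 21 of 41, against the same 30.9% to 31.7%. The mean share in replicate lists, 74.4% in whole lists, was 55.6% in the strongest peaks (32.7% of all genes) and 70.9% at a q-value of 0.01 or less (43.4%), and ranged from 70.5% to 78.2% with a replicate left out (49.1% to 51.2%). The ratio of the members' signal to that of all genes ranged from 0.951 to 1.04 with a replicate left out. Without smg, Smg5 and Smg6, an alternative chosen after seeing the data, 15 of 24 divergent members had a peak, or 62.5%. The share of all divergent genes was 54.8%. At 250 bp, 17 of 19 point sources were upstream, and within 100 bp of the point source the mean GC content was 32.9% (35.9% in all promoter peaks). No paired analysis was possible because the samples form 1 group. Limits: 39 genes give wide intervals, read depth is unknown here, embryo stages and cell types are mixed, and a peak between paired genes cannot be assigned to either.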
